A study of Homo sapiens with 21 samples.

Results

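The genes described here encode the secreted ligands of the WNT, BMP, GDF, TGFB and activin families, the Frizzled (FZD) receptors of WNT ligands, and the secreted WNT modulators of the SFRP, DKK and RSPO families. They were chosen by symbol, as WNT, FZD, SFRP, DKK, RSPO, BMP or GDF followed by a digit, together with FRZB, TGFB1, TGFB2, TGFB3, INHBA, INHBB and NODAL. Another 8 symbols that hold a hyphen or end like a pseudogene were dropped. The rule uses symbols and no expression value, but it was chosen with earlier results of these data known. It gave 71 of the 62699 genes of the count table, namely 19 WNT ligands, 10 FZD receptors, 5 SFRP genes with FRZB among them, 4 DKK genes, 4 RSPO genes, 11 BMP genes, 10 GDF genes and 6 TGFB, activin or NODAL genes. The remaining 2, BMP2K and BMP2KL, fit the symbols but encode kinases, and BMP1 encodes a protease.

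Islet cells were made from H1, a human embryonic stem cell line, and RNA was sequenced from 21 libraries. The 4 genotypes were unedited cells (WT) and cells labelled ISL1-/-, PAX6-/- or PDX1-/-, 3 transcription factor genes of pancreatic endocrine cells. Every culture received a lentivirus on day 11, carrying ISL1 and BFP joined by IRES2 (the ISL1 vector) or BFP alone (the BFP vector), and BFP-positive cells were sorted on day 18. All 8 groups therefore share the lentivirus, the fluorescent protein BFP and the sort. WT and PDX1-/- cells with the ISL1 vector, and WT cells with BFP alone, have 2 libraries each, and the other groups have 3, described by the submitters as biological replicates. Whether a knockout line is 1 clone, and which promoter drives the vector, are not given in the sources used here.

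WNT ligands bind FZD receptors and LRP co-receptors, which stabilises beta-catenin or acts through other branches, while SFRP and DKK proteins block ligand or co-receptor and RSPO proteins strengthen the response. BMP, GDF, activin and TGFB ligands bind pairs of receptor kinases that phosphorylate SMAD proteins, and ID genes and inhibitory SMAD genes are widely used readouts of BMP signalling. In pancreas development both pathways act at several steps, and protocols that make islets from stem cells commonly block or supply them at set stages.

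Total counts per library ran from 36807615 to 60199880, with a median of 50398068. Mitochondrial genes took 1.28% to 1.93% of counts in 19 libraries, 3.16% in PAX6-/- ISL1-vector replicate 3 and 3.84% in PDX1-/- ISL1-vector replicate 4, so results are given with and without these 2 libraries. All libraries share 1 model. In a comparison that holds neither of the 2, leaving them out keeps the libraries compared and changes the shared estimate of the spread and the genes tested. ISL1 had 71.6 to 96.8 CPM (the count per 1e+06 counts of the library) in the ISL1-/- libraries and 306 to 519 CPM in the WT libraries, and it did not separate the ISL1 vector from the BFP vector in any genotype. PAX6 levels in PAX6-/- overlapped those in WT with each vector, and PDX1 levels in PDX1-/- were above WT with the BFP vector and overlapped WT with the ISL1 vector, so the counts of these genes do not check those labels. All 13 islet endocrine markers averaged at least 1 CPM, and their summed level ran from 13433 to 158381 CPM. The highest sum was in PDX1-/- ISL1-vector replicate 4, where INS had 25612 CPM. The other PDX1-/- libraries had 87.5 to 186 CPM of INS and the WT libraries 5651 to 8382 CPM. This library thus stands apart from its genotype in more than its mitochondrial share, and the cause was not tested. Markers of other cells were present, since the summed level of 6 hepatocyte markers was 3664 to 22739 CPM and that of 10 mesenchyme markers 104 to 2026 CPM. The summed level of 6 markers of undifferentiated stem cells was 8.62 to 105 CPM, of which 2 averaged at least 1 CPM, LIN28A at 3.60 to 20.2 CPM and PRDM14 at 1.94 to 87.6 CPM, while POU5F1 was at most 0.504 CPM and NANOG at most 0.139 CPM. CPM is comparable between libraries for 1 gene, and CPM per kb of exon between genes. In such bulk samples, fewer cells of a type and less RNA per cell cannot be told apart.

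Promoter sequences are shown for 4 members, picked as examples of changes given below. SFRP5 and FZD5 were lower in PDX1-/- than in WT with the BFP vector and higher with the ISL1 vector than with the BFP vector in PDX1-/-, while WNT9A and INHBB were higher in PAX6-/- and in PDX1-/- than in WT. FRZB, GDF15 and FZD7 had the same calls as SFRP5 and FZD5 and are not shown. The comparisons behind those calls share the PDX1-/- BFP-vector libraries, and those for WNT9A and INHBB share the WT libraries. Each is the run of 250 bases before the gene's start, 5′ to 3′ on the gene's strand, from RefSeq on GRCh38.p14: SFRP5 at chr10:97772000-97772249 (minus strand), FZD5 at chr2:207769907-207770156 (minus), WNT9A at chr1:227947933-227948182 (minus) and INHBB at chr2:120345886-120346135 (plus). No exon of the annotation overlaps these windows. Capitals mark TAAT or its reverse complement ATTA, the core bound by many homeodomain factors, a class that ISL1, PAX6 and PDX1 belong to, and GGCGCC, a sequence to which SMADs of the BMP branch bind.
SFRP5: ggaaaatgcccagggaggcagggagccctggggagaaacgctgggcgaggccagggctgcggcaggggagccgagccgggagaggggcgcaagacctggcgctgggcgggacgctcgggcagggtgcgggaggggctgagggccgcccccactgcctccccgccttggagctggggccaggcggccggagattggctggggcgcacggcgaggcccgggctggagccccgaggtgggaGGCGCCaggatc
FZD5: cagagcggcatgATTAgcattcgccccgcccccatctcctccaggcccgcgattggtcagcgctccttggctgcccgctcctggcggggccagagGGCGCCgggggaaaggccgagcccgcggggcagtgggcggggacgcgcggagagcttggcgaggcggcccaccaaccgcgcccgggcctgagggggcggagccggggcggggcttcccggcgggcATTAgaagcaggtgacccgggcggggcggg
WNT9A: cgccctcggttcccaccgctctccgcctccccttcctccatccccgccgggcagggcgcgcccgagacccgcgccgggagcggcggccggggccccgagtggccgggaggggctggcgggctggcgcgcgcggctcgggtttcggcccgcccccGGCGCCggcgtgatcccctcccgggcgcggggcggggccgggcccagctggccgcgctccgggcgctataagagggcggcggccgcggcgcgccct
INHBB: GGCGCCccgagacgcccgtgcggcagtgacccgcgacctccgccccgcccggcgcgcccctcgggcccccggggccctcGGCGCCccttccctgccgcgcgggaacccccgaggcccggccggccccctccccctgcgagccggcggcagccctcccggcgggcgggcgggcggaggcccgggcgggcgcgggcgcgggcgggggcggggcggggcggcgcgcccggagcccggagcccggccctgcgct
TAAT or ATTA occurred at 2 places in the FZD5 window and was not found in the other 3. GGCGCC occurred at 1 place each in SFRP5, FZD5 and WNT9A and at 2 in INHBB. These windows are rich in G and C, at 76.8%, 76.8%, 84.4% and 89.6%, against a median of 58% over all 27305 windows of this length. Of the 71 members, 51 matched a window, of which 13 (25.5%) held TAAT on either strand, against 48.2% of all windows, and 14 (27.5%) held GGCGCC, against 16.1%. The palindrome TAATTA, whose matches also count as TAAT, was in 3 (5.88%) against 4.49%, and CTTTGA, a core sequence of TCF and LEF factors searched with its complement TCAAAG, was in 2 (3.92%) against 11.4%. A match describes letters in the window and no binding was measured.

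Of the 71 members, 61 passed the filter on low counts and were tested. BMP15, BMP2KL, GDF1, GDF2, GDF3, GDF5, NODAL, WNT3A, WNT7A and WNT8A were not tested, and BMP15 and GDF1 had 0 counts in every library. A group mean of at least 1 CPM was reached by 49 members and by none of the other 22. Per kilobase of exon and averaged over the 8 groups, GDF15 was the most abundant at 104 CPM per kb, followed by FRZB at 59.7, FZD5 at 27.3, BMP2 at 21.4, WNT11 at 16.1 and SFRP1 at 14.2. The group means of FZD3 lay close together.

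**Figure D1:**
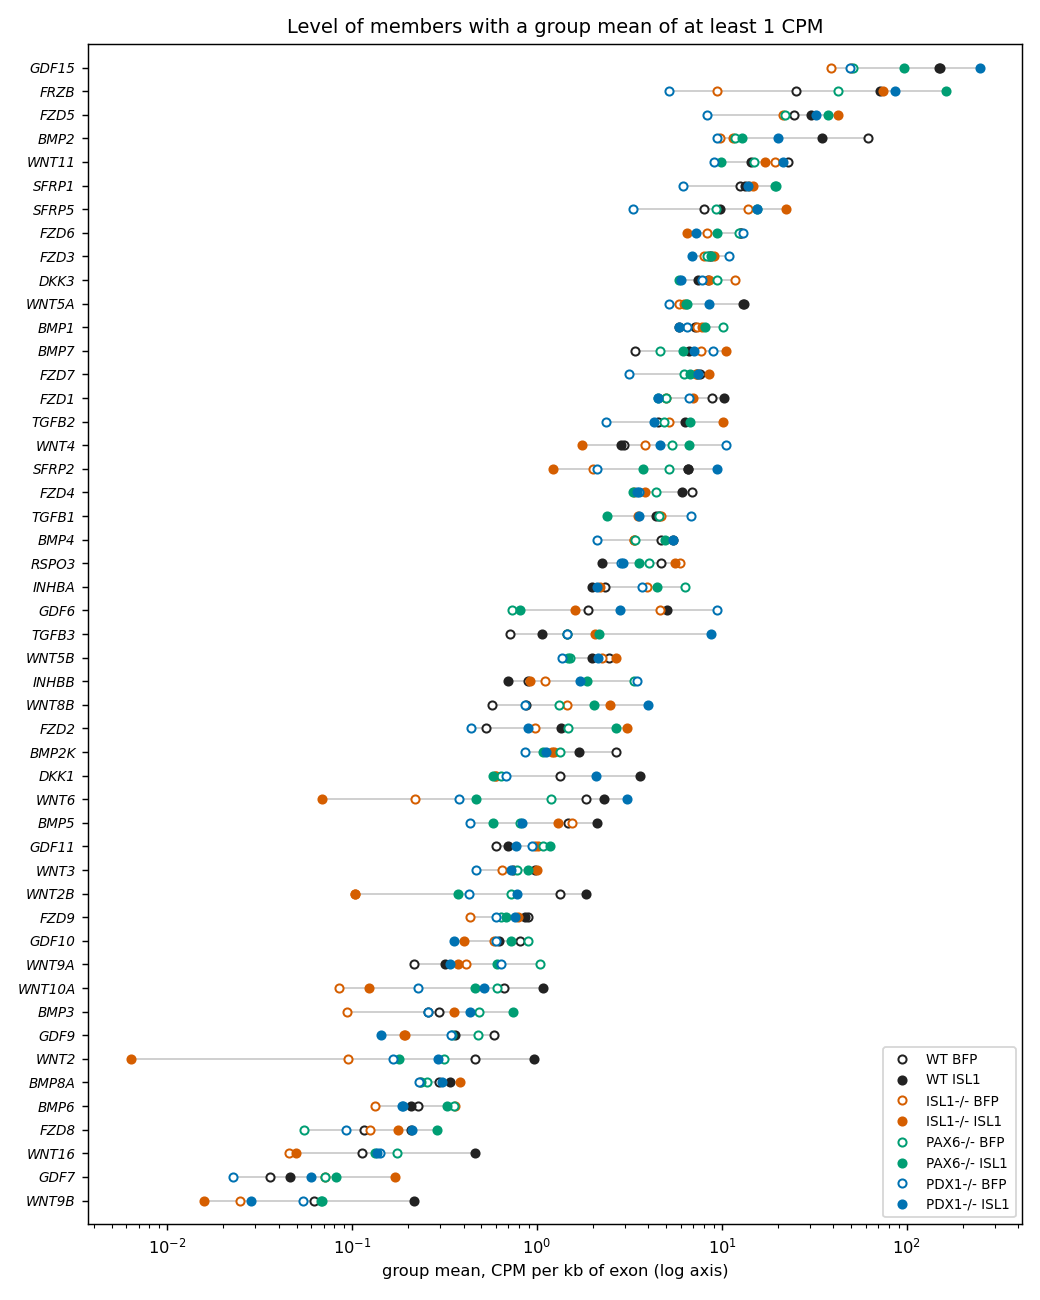
Group means of the 49 members with at least 1 CPM in some group, in CPM per kb of exon on a log axis, ordered by their average; open circles are BFP-vector groups, filled circles ISL1-vector groups, and colours genotypes. GDF15, FRZB and FZD5 stand highest, and FRZB, GDF6 and WNT2 spread more widely than FZD3 or FZD6.

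A gene was called when its adjusted p was under 0.05 in edgeR's quasi-likelihood test, with Benjamini-Hochberg adjustment over all 25884 genes tested. Some difference among the 8 groups was called for 21 of the 61 members, against 22.5% of all genes. Without both libraries of high mitochondrial share it was called for 41 of 63, against 48.5%. Against WT with the BFP vector, PDX1-/- gave 11 called members, 4 higher and 7 lower, where 9.68% of all genes were called, 4.03% higher and 5.65% lower. PAX6-/- gave 5, with 3 higher and 2 lower, against 5.51% (2.25% higher and 3.26% lower), and ISL1-/- gave 3, with 1 higher and 2 lower, against 5.59% (1.67% and 3.92%). Without both libraries these counts were 22 of 63 members for PDX1-/- (27.6% of all genes), 17 for PAX6-/- (23.5%) and 22 for ISL1-/- (23.5%), and they kept every member called with all libraries. The median log2 fold change of the 61 members was -0.54 in PDX1-/-, 0.01 in PAX6-/- and -0.225 in ISL1-/-, where the medians over all genes were 0.027, 0.033 and 0.025. These 3 comparisons share the WT libraries, so their values are given side by side and not as support for each other.

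Under the ISL1 vector, ISL1-/- against WT gave 3 called members, all lower (3.72% of all genes), PAX6-/- gave 1, which was lower (3.56%), and PDX1-/- gave 0 (0.634%), with 6 members at an unadjusted p under 0.05 and 1 called by DESeq2. Without both libraries the counts were 20 (19.5%), 12 (12.2%) and 7 (6.66%). The 2 PDX1-/- ISL1-vector libraries were far apart for many members, and 1 of them is a library of high mitochondrial share. The effect of the ISL1 vector was called for 0 members in WT (0.027% of all genes), with 4 at an unadjusted p under 0.05 and 0 by DESeq2. It was called for 1 in ISL1-/- (0.382%), 2 in PAX6-/- (0.355%), or 4 with the replicate number as a block, and 7 in PDX1-/-, all higher, where 12.5% of all genes were called, 8.19% higher and 4.33% lower. Without both libraries the vector gave 16 in PDX1-/- (8.92%), 9 in PAX6-/- (4.97%), 8 in ISL1-/- (4.93%) and 2 in WT (1.32%), the PDX1-/- count with 1 ISL1-vector library that is assumed to vary like the other groups.

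Between knockouts with the BFP vector, PAX6-/- against ISL1-/- gave 3 called members (2.46% of all genes), PDX1-/- against ISL1-/- gave 3 (5.07%) and PDX1-/- against PAX6-/- gave 5 (3.04%). Without both libraries the counts were 12 (8.74%), 16 (21.7%) and 19 (16.3%). The vector's effect in a knockout was called as different from that in WT for 0 members in ISL1-/- (0.00386% of all genes), 0 in PAX6-/- (0%) and 0 in PDX1-/- (1.19%), with 2, 3 and 11 at an unadjusted p under 0.05 and 0, 0 and 5 by DESeq2. Without both libraries these were 1 (0.308%), 0 (0.147%) and 7 (2.36%).

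**Figure D2:**
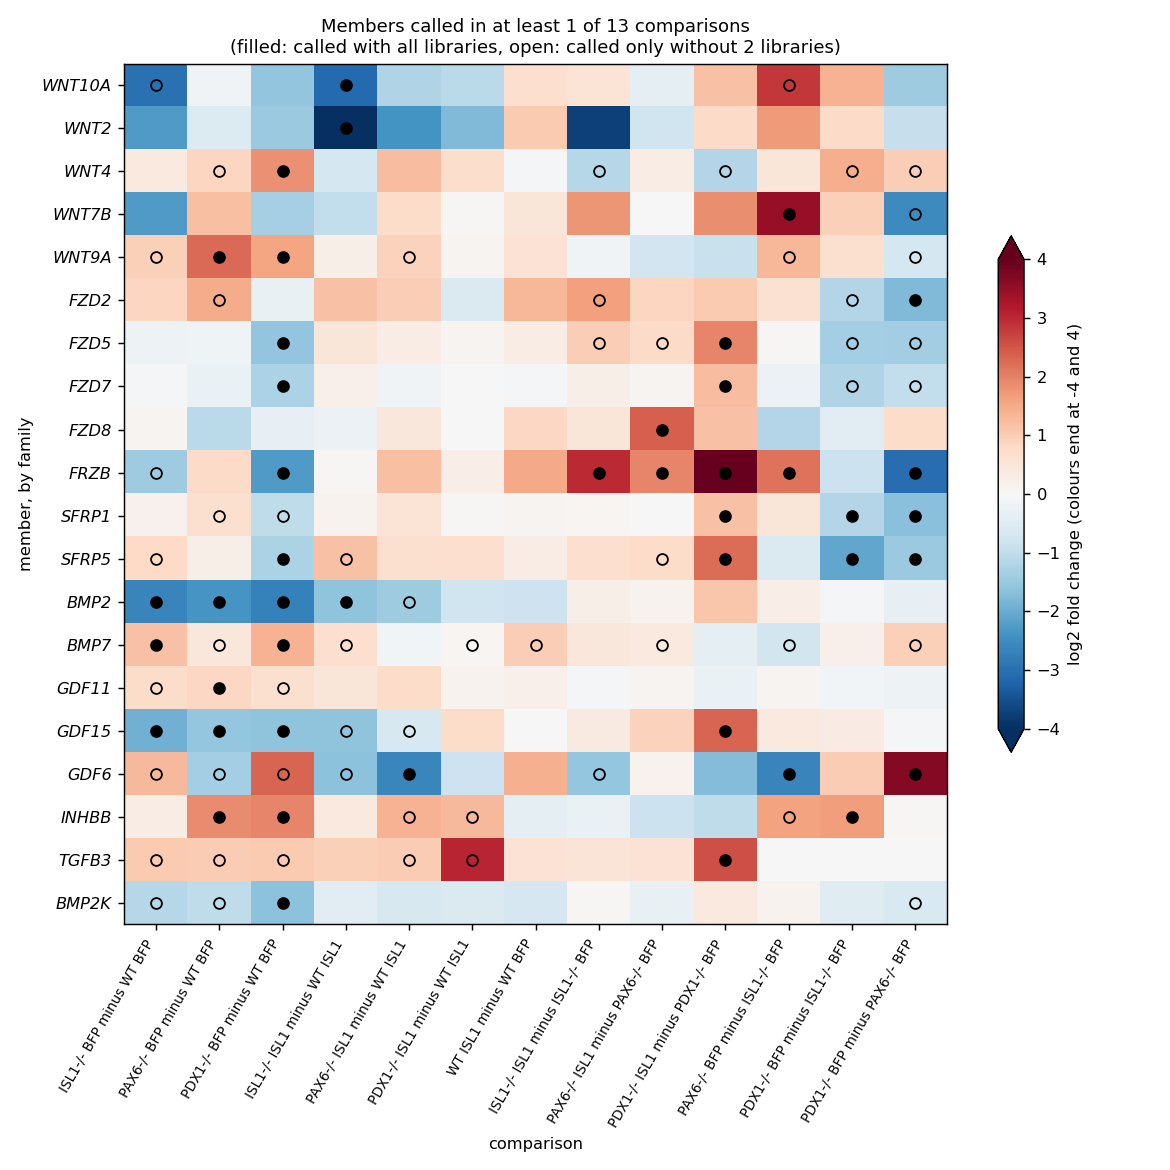
Log2 fold changes of the members called in at least 1 of 13 comparisons, with members by family on the vertical axis and comparisons on the horizontal axis; filled dots mark calls with all libraries and open circles calls made only without the 2 libraries of high mitochondrial share. BMP2 and GDF15 are blue in all 3 BFP-vector comparisons with WT, and FRZB is red in all 4 effects of the ISL1 vector, of which that in WT, at 1.51, was not called.

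BMP2, a BMP ligand, was the called member with the largest fall in each knockout with the BFP vector. With the BFP vector it had 196 and 238 CPM in WT, against 50.0, 28.9 and 25.1 CPM in ISL1-/-, 39.6, 48.1 and 37.8 CPM in PAX6-/- and 35.7, 29.0 and 34.6 CPM in PDX1-/-. Every WT library was above every knockout library. BMP2 fell by 2.64 on the log2 scale in ISL1-/- (SE 0.41, adjusted p 0.000872), by 2.37 in PAX6-/- (SE 0.40, adjusted p 0.00271) and by 2.71 in PDX1-/- (SE 0.41, adjusted p 0.000683). These 3 calls were kept in all 21 fits that left out 1 library, with adjusted p up to 0.0132, 0.0339 and 0.00905 where the library belonged to the comparison, and in all 5 other settings tried.

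In the ISL1-vector libraries BMP2 had 105 and 140.5 CPM in WT, which lay below the 2 WT libraries with the BFP vector (log2 fold change -0.82, SE 0.45, unadjusted p 0.0824). It had 57.5, 30.4 and 33.8 CPM in ISL1-/-, and fell by 1.60 there against WT (SE 0.40, adjusted p 0.0327). That call was lost without either WT library and without ISL1-/- replicate 2 or 3, with adjusted p up to 0.269. The PAX6-/- libraries had 72.9, 36.7 and 27.4 CPM (-1.43, SE 0.40, adjusted p 0.059; 0.0321 without both libraries of high mitochondrial share), and the PDX1-/- libraries 45.1 and 97.4 CPM (-0.78, SE 0.45, adjusted p 0.374). In none of the 3 knockouts did an ISL1-vector library reach the WT level. The hepatocyte marker sum was 14901 and 16906 CPM in WT with BFP. It was 6508 to 9203 CPM in ISL1-/-, 5115 to 7034 CPM in PAX6-/- and 3664 to 4191 CPM in PDX1-/- with BFP. In WT with ISL1 it was 8592 and 10412 CPM, overlapping ISL1-/- with BFP. The highest sum, 22739 CPM, was in PDX1-/- ISL1-vector replicate 4, which had 97.4 CPM of BMP2. The sum and BMP2 thus did not keep the same order over all groups. All 6 of these markers were above 1 CPM in each group, and their part in the result was not tested.

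BMP7, also a BMP ligand, took the opposite direction. It had 19.5 and 17.3 CPM in WT with the BFP vector, against 40.2, 43.0 and 42.4 CPM in ISL1-/- and 44.9, 45.9 and 55.2 CPM in PDX1-/-. BMP7 rose by 1.19 in ISL1-/- (SE 0.33, adjusted p 0.0422) and by 1.40 in PDX1-/- (SE 0.33, adjusted p 0.0120), with no overlap of libraries. The ISL1-/- call was lost without any 1 of its 5 libraries (adjusted p up to 0.297) and the PDX1-/- call without either WT library (up to 0.127), while both were kept in the 5 other settings. PAX6-/- had 21.2, 31.0 and 23.2 CPM (0.45, adjusted p 0.505). WT libraries with the ISL1 vector had 37.7 and 34.6 CPM, above both BFP-vector libraries (0.97, SE 0.35, adjusted p 0.983; 0.00547 without both libraries of high mitochondrial share).

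Of the other BMP genes, BMP1, the procollagen protease, had 16.2 to 75.6 CPM and BMP4 2.95 to 30.7 CPM, and neither was called in a comparison of groups. The lowest BMP1 and the highest BMP4 value were both in PDX1-/- ISL1-vector replicate 4, and the lowest BMP4 value was in the other library of that group. BMP8A and BMP8B are near-identical copies whose reads could be split by counting, so their values are uncertain. BMP2K, the kinase, fell by 1.63 in PDX1-/- against WT with the BFP vector (SE 0.38, adjusted p 0.0110), from 27.9 and 25.1 to 10.7, 6.27 and 8.68 CPM, and the call was lost without either WT library or PDX1-/- replicate 2 (adjusted p up to 0.0951). Its span overlaps PAQR3, which has more counts (27838 against 14044 over all libraries), and whether counting used strand is not given in the sources used here.

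**Figure D3:**
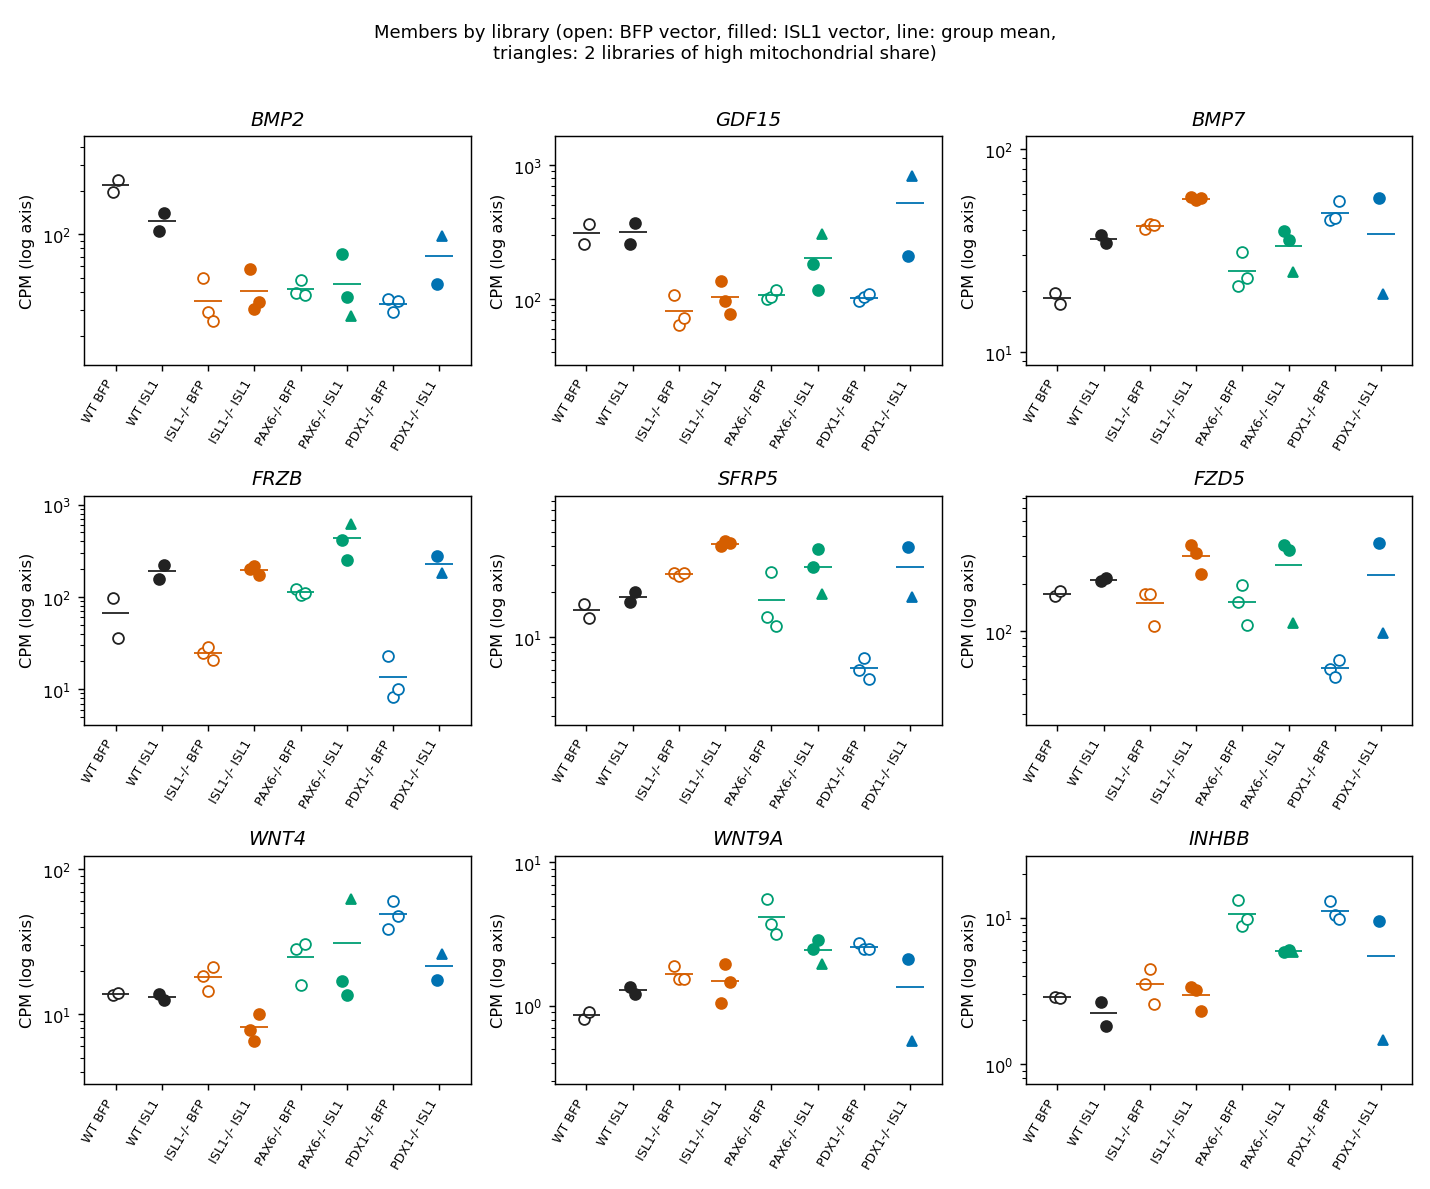
CPM of 9 members in each of the 21 libraries, on log axes, by group; open symbols are the BFP vector, filled symbols the ISL1 vector, lines group means and triangles the 2 libraries of high mitochondrial share. Every WT library exceeds every knockout library for BMP2, GDF15 reaches 305 and 825 CPM in the triangles, and FRZB is higher with the ISL1 vector in each genotype.

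GDF15, a TGFB-superfamily cytokine known for its rise in stressed cells, was lower in each knockout. Among BFP-vector libraries it had 257 and 366 CPM in WT, 108, 64.5 and 72.2 CPM in ISL1-/-, 100.1, 103 and 118 CPM in PAX6-/- and 96.1, 103 and 109 CPM in PDX1-/-. No knockout library reached the lower WT library. GDF15 fell by 1.93 in ISL1-/- (SE 0.44, adjusted p 0.0153), by 1.54 in PAX6-/- (SE 0.44, adjusted p 0.0488) and by 1.60 in PDX1-/- (SE 0.44, adjusted p 0.0281). The ISL1-/- call was lost without ISL1-/- replicate 2 or 3 or WT replicate 3 (adjusted p up to 0.152), and the others without any 1 of their 5 libraries (up to 0.334 in PAX6-/- and 0.209 in PDX1-/-).

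Its level with the ISL1 vector was 257 and 371 CPM in WT, 137, 97.2 and 77.1 CPM in ISL1-/-, 183, 116 and 305 CPM in PAX6-/- and 211 and 825 CPM in PDX1-/-. The highest value of PAX6-/- and that of PDX1-/- were in the 2 libraries of high mitochondrial share. In PDX1-/- GDF15 rose by 2.34 with the ISL1 vector (SE 0.45, adjusted p 0.00379), and without replicate 4 the call was lost (adjusted p 0.211). Without both libraries the fold change was 1.07 (adjusted p 0.037).

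GDF6, a BMP-type ligand, was lower in PAX6-/- than in each of the other knockouts with the BFP vector. In BFP-vector cells it had 39.9, 35.9 and 29.3 CPM in PDX1-/-, 15.2, 16.0 and 20.4 CPM in ISL1-/-, 7.56 and 6.47 CPM in WT and 1.72, 3.73 and 2.74 CPM in PAX6-/-. These 4 groups did not overlap. GDF6 was 3.68 higher in PDX1-/- than in PAX6-/- (SE 0.65, adjusted p 0.00346), a call kept in all 21 fits that left out 1 library. It was 2.65 lower in PAX6-/- than in ISL1-/- on the same scale (log2 fold change -2.65, SE 0.63, adjusted p 0.0279), which was lost without any 1 of the 6 libraries (up to 0.154). The difference between PDX1-/- and ISL1-/- was not called (1.03, SE 0.59, adjusted p 0.393). Against WT the fold changes were 2.32 in PDX1-/- (adjusted p 0.0501), 1.29 in ISL1-/- (0.327) and -1.36 in PAX6-/- (0.275), and without both libraries of high mitochondrial share all 3 were called (0.000825, 0.0335 and 0.0246).

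Where the ISL1 vector was used GDF6 had 18.5 and 18.7 CPM in WT, 5.62, 6.00 and 6.14 CPM in ISL1-/-, 1.18, 6.60 and 1.24 CPM in PAX6-/- and 18.6 and 2.37 CPM in PDX1-/-. Libraries with the ISL1 vector were thus above those with the BFP vector in WT and below them in ISL1-/-. The difference between these vector effects was -2.94 (SE 0.95, unadjusted p 0.00642), which did not pass adjustment, and was -2.97 (adjusted p 0.0418) without both libraries. Against WT with the ISL1 vector, GDF6 fell by 2.62 in PAX6-/- (SE 0.66, adjusted p 0.0351), lost without either WT library or PAX6-/- replicate 1 or 3 (up to 0.168).

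GDF11, a ligand related to myostatin, rose by 0.84 in PAX6-/- with the BFP vector (SE 0.24, adjusted p 0.0470), from 4.83 and 5.74 to 8.13, 9.50 and 10.8 CPM. The call was lost without any 1 of the 5 libraries (adjusted p up to 0.365) with the scaling of DESeq2 in edgeR (0.0550) and with no filter on low counts (0.202), and was kept by DESeq2. In ISL1-/- it had 8.82, 6.83 and 10.9 CPM (0.74, adjusted p 0.0794) and in PDX1-/- 6.81, 8.68 and 9.31 CPM (0.65, adjusted p 0.101).

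Among the activin and TGFB genes, INHBB, which encodes the beta B subunit of activins and inhibins, was higher in PAX6-/- and PDX1-/-. With the BFP vector it had 2.90 and 2.84 CPM in WT, 3.51, 4.49 and 2.57 CPM in ISL1-/-, 13.3, 8.84 and 9.87 CPM in PAX6-/- and 13.0, 10.5 and 9.81 CPM in PDX1-/-. The PAX6-/- and PDX1-/- libraries were all above the WT and ISL1-/- libraries. INHBB rose by 1.89 in PAX6-/- (SE 0.51, adjusted p 0.0355) and by 1.95 in PDX1-/- (SE 0.51, adjusted p 0.0208), and was 1.66 higher in PDX1-/- than in ISL1-/- (SE 0.43, adjusted p 0.0316). The PDX1-/- call against WT was lost without PDX1-/- replicate 1 or either WT library (up to 0.176), and the others without any 1 of their libraries (up to 0.244 and 0.122). The ISL1-vector values of INHBB were 5.86, 6.05 and 5.89 CPM in PAX6-/-, 9.52 and 1.45 CPM in PDX1-/-, 2.67 and 1.81 CPM in WT and 3.35, 3.19 and 2.30 CPM in ISL1-/-.

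INHBA, the beta A subunit, was not called in a comparison of groups. Its highest BFP-vector group was PAX6-/-, with 62.8, 38.0 and 56.0 CPM against 16.3 and 22.4 CPM in WT (1.43, SE 0.52, adjusted p 0.130; 0.000247 without both libraries of high mitochondrial share). TGFB2, a TGFB ligand and the most abundant of this family at 5.54 CPM per kb, had 13.9, 13.0 and 15.8 CPM in PDX1-/- with the BFP vector and 30.7 and 23.9 CPM in WT (-0.94, SE 0.44, adjusted p 0.219; 0.00289 without both libraries). TGFB3, another TGFB ligand, had 88.6 CPM in PDX1-/- ISL1-vector replicate 2 and 2.64 CPM in replicate 4, against 5.59, 6.09 and 11.1 CPM with the BFP vector. Its rise of 2.59 (SE 0.76, adjusted p 0.0348) therefore rests on 1 library, and without replicate 2 the fold change was -1.54 (adjusted p 0.0343). The call was also lost without any 1 of the 3 BFP-vector libraries (up to 0.109). The span of TGFB3 overlaps IFT43, which has 41190 counts to its 13259.

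The WNT ligand genes were expressed at lower levels than GDF15, FRZB or FZD5 per kilobase, with WNT11 at 16.1, WNT5A at 8.08 and WNT4 at 4.81 CPM per kb as the most abundant. WNT4 was highest in PDX1-/- with the BFP vector, at 38.6, 60.4 and 47.2 CPM, against 13.5 and 14.0 CPM in WT, 18.2, 14.5 and 21.0 CPM in ISL1-/- and 28.2, 15.9 and 30.5 CPM in PAX6-/-. No library of another BFP-vector group reached the PDX1-/- libraries. WNT4 rose by 1.83 in PDX1-/- against WT (SE 0.51, adjusted p 0.0292), which was lost without either WT library or PDX1-/- replicate 2 or 3 (up to 0.223). ISL1-vector libraries of PDX1-/- had 17.1 and 25.9 CPM and those of ISL1-/- 7.76, 6.55 and 10.1 CPM, each below the BFP-vector libraries of the same genotype (-1.18, adjusted p 0.115, and -1.14, adjusted p 0.417). Without both libraries of high mitochondrial share these effects were -1.48 (adjusted p 0.0110) and -1.17 (adjusted p 0.00514).

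WNT9A, a WNT ligand of low abundance, had 0.813 and 0.907 CPM in WT with the BFP vector, 5.58, 3.73 and 3.18 CPM in PAX6-/-, 2.72, 2.50 and 2.47 CPM in PDX1-/- and 1.89, 1.53 and 1.54 CPM in ISL1-/-. These 4 groups did not overlap, with PAX6-/- the highest and WT the lowest. WNT9A rose by 2.27 in PAX6-/- (SE 0.44, adjusted p 0.00679), lost without either WT library (up to 0.113), and by 1.58 in PDX1-/- (SE 0.43, adjusted p 0.0280), lost without any 1 of the 5 libraries (up to 0.243). The ISL1-/- difference was 0.94 (adjusted p 0.233). WNT5A, a ligand of the branch without beta-catenin, had 86.0 and 102 CPM in WT with BFP and 30.1 to 52.9 CPM in the BFP-vector knockouts, and was not called in any of the 3 (adjusted p 0.153, 0.220 and 0.0692 in ISL1-/-, PAX6-/- and PDX1-/-). Without both libraries all 3 were called, at -1.15 (adjusted p 0.00120), -1.03 (0.00251) and -1.37 (0.000174). WNT11, also of that branch, had 9.84 to 83.8 CPM and was not called in a comparison of groups.

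WNT2 and WNT10A were called in ISL1-/- against WT with the ISL1 vector. WNT2, a ligand known from mesenchyme, had 183 and 219 counts in the WT libraries (3.84 and 4.57 CPM) and 0, 5 and 0 counts in the ISL1-/- libraries, and its fitted fold change of -7.06 (SE 1.91, adjusted p 0.0479) depends on the prior count. WNT10A fell by 3.12 (SE 0.84, adjusted p 0.0471), from 2.50 and 3.77 CPM to 0.295, 0.316 and 0.468 CPM. Both calls were lost without any 1 of the 5 libraries, with adjusted p up to 0.174 and 0.258. WNT2 overlaps CFTR, which has 43842 counts to its 1217. The ISL1-/- ISL1-vector libraries had a mesenchyme marker sum of 116, 178 and 209 CPM, against 1719 and 2026 CPM in WT. Most of the WT sum was COL3A1, at 1248 and 1376 CPM, against 27.0, 70.5 and 95.3 CPM in ISL1-/-. PDGFRA was higher in ISL1-/-, at 15.9, 21.5 and 22.6 against 7.47 and 9.30 CPM. PDGFRB and THY1 overlapped WT, and the other markers of the list were lower. The part of the mesenchyme markers in these results was not tested. WNT7B, a WNT ligand that stayed under 1 CPM in every library, was called in PAX6-/- against ISL1-/- with the BFP vector (3.48, adjusted p 0.0413), at 0.249, 0.875 and 0.643 CPM against 0.124, 0 and 0.0311 CPM. It is named here after its values were seen, as are WNT2B and WNT6 below.

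WNT2, WNT2B, WNT6 and WNT10A were high or low together among the BFP-vector libraries of WT, of PAX6-/- and of PDX1-/-. Their summed level was 39.8 and 7.25 CPM in the WT BFP-vector libraries, where the mesenchyme marker sum was 1269 and 227 CPM. In PDX1-/- with BFP it was 18.7, 2.30 and 1.05 CPM, beside marker sums of 855, 118 and 104 CPM, and in PAX6-/- with BFP 2.90, 24.6 and 15.0 CPM, beside 202, 953 and 958 CPM. Libraries with few mesenchyme marker reads thus held little of these 4 genes. COL3A1 was the largest part of the marker sum in these libraries, at 820 and 124 CPM in WT. In ISL1-/- with BFP the 4 genes summed to 1.98, 2.20 and 2.77 CPM, beside marker sums of 142, 228 and 367 CPM. There WNT2B (1.24, 1.35 and 1.24 CPM), WNT6 (0.407, 0.364 and 0.358 CPM) and WNT10A (0.230, 0.295 and 0.218 CPM) did not rise with the markers. The library with the lowest sum was that with the lowest marker sum in all 8 groups, and the library with the highest sum was that with the highest marker sum in 6 of 8. WNT2B was the largest part of the sum, at 27.9 and 4.84 CPM in WT with BFP. Alone it shared the lowest library in all 8 groups, and WNT2, WNT6 and WNT10A each did in 7. The comparison with single members that follows covers the highest library only. Over single members the median number of groups that shared the highest library was 4, and 3 of the 61 shared it in at least 7 groups (BMP5, SFRP2 and WNT2, named after their values were seen). The 4 were picked with their values in view, the libraries share their depth and cultures, and the part of mesenchyme in their levels was not tested. In PDX1-/- ISL1-vector replicate 4 the 4 genes summed to 32.7 CPM beside a marker sum of 397 CPM.

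**Figure D4:**
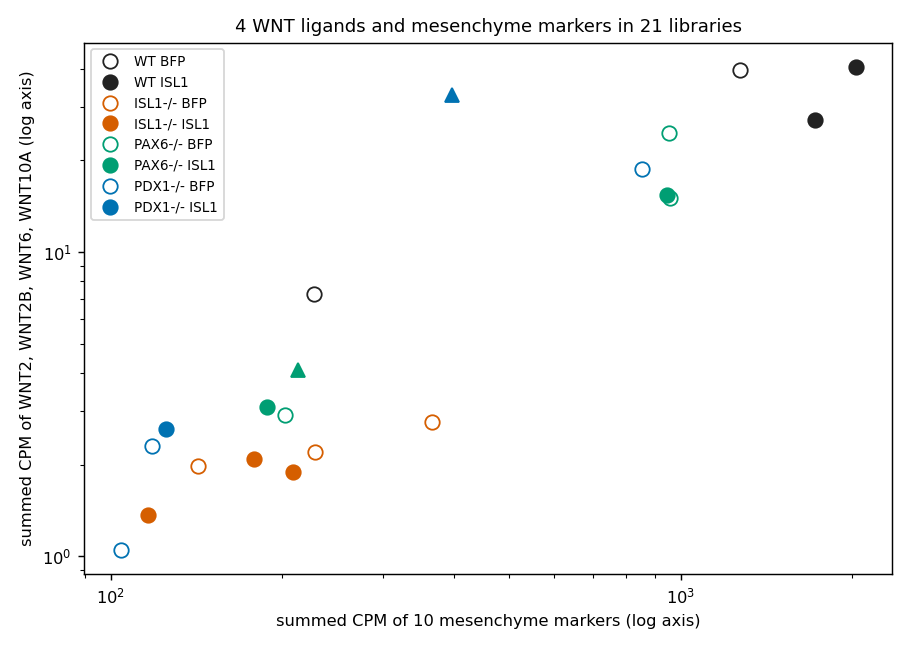
Summed CPM of WNT2, WNT2B, WNT6 and WNT10A against the summed CPM of 10 mesenchyme markers in the 21 libraries, both on log axes; open symbols are the BFP vector, filled symbols the ISL1 vector, colours genotypes and triangles the 2 libraries of high mitochondrial share. The libraries run along one band from 104 to 2026 CPM of markers, libraries of WT, PAX6-/- and PDX1-/- with the BFP vector lie far apart along it within their group, and the triangle at 397 CPM lies above it.

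FZD5 was the most abundant WNT receptor gene, at 27.3 CPM per kb, ahead of FZD6 at 10.2 and FZD3 at 8.65. BFP-vector libraries held 57.9, 51.1 and 66.1 CPM in PDX1-/-, against 167 and 179 CPM in WT, 171, 171 and 108 CPM in ISL1-/- and 154, 197 and 110.0 CPM in PAX6-/-. Only the PDX1-/- libraries lay under 100 CPM. FZD5 fell by 1.57 in PDX1-/- against WT (SE 0.46, adjusted p 0.0373), a call lost without any 1 of the 5 libraries (up to 0.165). It had, with the ISL1 vector, 359.5 and 96.9 CPM in PDX1-/-, both above the BFP-vector libraries, and rose by 1.97 (SE 0.46, adjusted p 0.0120), lost without PDX1-/- BFP-vector replicate 2 or ISL1-vector replicate 2 (up to 0.206). The 2 ISL1-vector libraries differ more from each other than replicate 4 does from the BFP-vector libraries.

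In the other genotypes the ISL1 vector went with FZD5 values of 208 and 217 CPM in WT (0.29), 351, 312 and 229.9 CPM in ISL1-/- (0.99, adjusted p 0.536) and 353, 325 and 112 CPM in PAX6-/- (0.78, adjusted p 0.523). All ISL1-vector libraries exceeded the BFP-vector libraries in WT and ISL1-/-, and the PAX6-/- groups overlapped through replicate 3. Without both libraries of high mitochondrial share the effects in ISL1-/-, PAX6-/- and PDX1-/- were all called, at 0.95 (adjusted p 0.0116), 1.13 (0.00971) and 2.65 (8.28e-06). The PDX1-/- effect exceeded the WT effect by 1.67 (SE 0.68, adjusted p 0.246), and by 2.36 without both libraries (adjusted p 0.00228).

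FZD7, a receptor known from stem cells, showed the same order in PDX1-/- at a lower level. It had 20.3, 7.16 and 16.0 CPM with the BFP vector, against 34.5 and 34.9 CPM in WT, and 39.3 and 29.1 CPM with the ISL1 vector. FZD7 fell by 1.26 in PDX1-/- against WT (SE 0.39, adjusted p 0.0474) and rose by 1.24 with the ISL1 vector (SE 0.39, adjusted p 0.0443). The calls were lost without PDX1-/- BFP-vector replicate 2 or 3 and without either library of the other group, with adjusted p up to 0.218 and 0.137. These 2 comparisons share the PDX1-/- BFP-vector libraries. FZD8, a receptor with 0.170 to 1.72 CPM over all libraries, rose by 2.38 with the ISL1 vector in PAX6-/- (SE 0.43, adjusted p 0.0209), from 0.228, 0.268 and 0.170 to 1.07, 0.727 and 1.72 CPM, and the call was kept only without PAX6-/- ISL1-vector replicate 2 among the 6 libraries (up to 0.161). FZD2 was 1.76 lower in PDX1-/- than in PAX6-/- with the BFP vector (log2 fold change -1.76, SE 0.40, adjusted p 0.0217), at 2.78, 1.14 and 1.03 against 4.05, 6.66 and 6.05 CPM, lost without replicate 2 or 3 of either group (up to 0.134). FZD3, FZD6, FZD1 and FZD4, the other abundant receptors, were not called in a comparison of groups, and FZD4 overlaps PRSS23, which has more counts.

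FRZB, a secreted FZD-like protein that binds WNT ligands, had its lowest group mean in PDX1-/- with the BFP vector and its highest in PAX6-/- with the ISL1 vector. With the BFP vector it had 96.6 and 36.2 CPM in WT, 24.9, 28.7 and 20.6 CPM in ISL1-/-, 121, 106 and 110.3 CPM in PAX6-/- and 22.7, 8.27 and 10.1 CPM in PDX1-/-. With the ISL1 vector it had 157 and 221 CPM in WT, 199, 214 and 171 CPM in ISL1-/-, 418, 249.5 and 625 CPM in PAX6-/- and 276 and 181 CPM in PDX1-/-. In each of the 4 genotypes every ISL1-vector library was above every BFP-vector library. FRZB rose with the ISL1 vector by 4.06 in PDX1-/- (SE 0.46, adjusted p 9.18e-05), by 2.98 in ISL1-/- (SE 0.42, adjusted p 0.00320) and by 1.94 in PAX6-/- (SE 0.40, adjusted p 0.0444), while the WT effect of 1.51 was not called (SE 0.49, adjusted p 0.800).

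The PDX1-/- call was kept in all 21 fits that left out 1 library (adjusted p up to 0.00129 among its own libraries). The ISL1-/- call was lost only without ISL1-/- BFP-vector replicate 3 (0.0518), and the PAX6-/- call was kept only without ISL1-vector replicate 2 among its 6 libraries (up to 0.245). The effect in PDX1-/- exceeded that in WT by 2.55 (SE 0.65, adjusted p 0.0648), and by 2.85 without both libraries of high mitochondrial share (adjusted p 0.0185). The excess over WT was 1.47 in ISL1-/- (SE 0.62, unadjusted p 0.0294) and 0.43 in PAX6-/- (SE 0.62, unadjusted p 0.491), neither of which passed adjustment.

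Among BFP-vector groups, FRZB fell by 2.28 in PDX1-/- against WT (SE 0.44, adjusted p 0.00320), a call lost without WT replicate 1 (0.137), and the ISL1-/- difference was -1.43 (SE 0.43, adjusted p 0.0626; 0.0114 without both libraries). It was 2.18 higher in PAX6-/- than in ISL1-/- (SE 0.41, adjusted p 0.00551) and 3.03 lower in PDX1-/- than in PAX6-/- (log2 fold change -3.03, SE 0.42, adjusted p 0.00044), both kept in all 21 fits that left out 1 library. PDX1-/- and ISL1-/- overlapped, and their difference was not called (-0.85, SE 0.39, adjusted p 0.261). PAX6-/- lay above both WT libraries (0.76, adjusted p 0.395). Under the ISL1 vector the knockouts did not differ from WT by a call (0.04, 1.19 and 0.27 in ISL1-/-, PAX6-/- and PDX1-/-, with adjusted p 0.983, 0.175 and 0.782).

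SFRP5, a secreted WNT antagonist of the foregut, had 6.00, 7.31 and 5.24 CPM in PDX1-/- with the BFP vector, against 16.6 and 13.4 CPM in WT, 26.8, 25.3 and 26.4 CPM in ISL1-/- and 13.6, 27.0 and 11.8 CPM in PAX6-/-. PDX1-/- was below every other group. SFRP5 was 2.08 lower in PDX1-/- than in ISL1-/- (log2 fold change -2.08, SE 0.33, adjusted p 0.00122), a call kept in all 21 fits that left out 1 library. It fell by 1.28 in PDX1-/- against WT (SE 0.35, adjusted p 0.0275), lost without any 1 of the 5 libraries (up to 0.240), and by 1.50 against PAX6-/- (SE 0.32, adjusted p 0.0147), lost without PAX6-/- replicate 2 or PDX1-/- replicate 1 or 3 (up to 0.115). PDX1-/- libraries with the ISL1 vector had 39.6 and 18.3 CPM, a rise of 2.23 (SE 0.35, adjusted p 0.00112) that was kept in all 21 fits. WT had 17.0 and 19.8 CPM, ISL1-/- 40.0, 43.2 and 41.8 CPM and PAX6-/- 29.2, 38.4 and 19.2 CPM with this vector. The vector's effect in PDX1-/- exceeded that in WT by 1.93 (SE 0.52, adjusted p 0.0816), and by 2.42 without both libraries of high mitochondrial share (adjusted p 0.00414).

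SFRP1, a related antagonist, had 40.8, 24.99 and 21.7 CPM in PDX1-/- with the BFP vector, below 61.0 and 56.7 CPM in WT, 65.7, 65.5 and 67.6 CPM in ISL1-/- and 98.5, 79.2 and 99.5 CPM in PAX6-/-. It fell by 1.67 in PDX1-/- against PAX6-/- (SE 0.30, adjusted p 0.00401), kept in all 21 fits that left out 1 library. Its fall of 1.18 against ISL1-/- (SE 0.30, adjusted p 0.0270) was kept only without PDX1-/- replicate 1 among the 6 libraries (up to 0.143). Against WT the fold change was -1.01 (adjusted p 0.0577). The rise of 1.16 with the ISL1 vector in PDX1-/- (SE 0.32, adjusted p 0.0282), to 42.3 and 88.3 CPM, was lost without ISL1-vector replicate 4 or BFP-vector replicate 2 or 3 (up to 0.542), and was 0.56 without both libraries of high mitochondrial share (adjusted p 0.155). In these libraries the lower of the 2 ISL1-vector values nearly meets the highest BFP-vector value.

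DKK3, a divergent member of the DKK family, was the most abundant DKK gene at 8.10 CPM per kb, with 51.1 to 144 CPM. It was not called in a comparison of groups. In PAX6-/- it had 132, 83.0 and 120.2 CPM with the BFP vector and 76.0, 63.0 and 69.6 CPM with the ISL1 vector (-0.68, SE 0.21, adjusted p 0.228). In that comparison the replicate numbers were taken to pair the libraries, and with the number as a block DKK3 and TGFB1 were called in addition to FRZB and FZD8. DKK3 overlaps USP47, and TGFB1 overlaps HNRNPUL1, each with more counts than the member. DKK1, an inhibitor of LRP co-receptors, had 0.141 to 9.21 CPM, with the extremes in PDX1-/- ISL1-vector replicate 2 and WT ISL1-vector replicate 2. RSPO3, the 1 RSPO gene with a group mean above 1 CPM, had 24.4 and 22.2 CPM in WT with BFP and 9.03 and 13.3 CPM in WT with ISL1 (-1.06, SE 0.46, unadjusted p 0.0344; adjusted p 0.0445 without both libraries of high mitochondrial share). It had 31.8, 28.2 and 23.2 CPM in ISL1-/- with the ISL1 vector, above both WT libraries (1.31, SE 0.44, adjusted p 0.109; 0.000966 without both libraries).

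Another 75 genes of these pathways, in lists of receptors, antagonists, intracellular members and target genes, were tested beside the members. These lists were also chosen with earlier results of these data known. The BMP and TGFB target list holds 10 genes, all tested, among them ID1, ID2, ID3, ID4, SMAD6, SMAD7, SMAD9, BAMBI and SKIL. Against WT with the BFP vector, 2 fell and 0 rose in ISL1-/-, 5 fell and 0 rose in PAX6-/-, and 5 fell and 1 rose in PDX1-/-, where 3.92%, 3.26% and 5.65% of all genes fell and 1.67%, 2.25% and 4.03% rose. The list's median log2 fold change was -1.11, -1.19 and -1.54 there, against 0.025, 0.033 and 0.027 over all genes. Without both libraries of high mitochondrial share, 8 fell in ISL1-/-, 8 in PAX6-/- and 7 in PDX1-/-, with 0, 0 and 1 higher, where 23.5%, 23.5% and 27.6% of all genes were called in either direction. With the ISL1 vector 3, 4 and 0 fell and 0 rose in ISL1-/-, PAX6-/- and PDX1-/-, where 3.72%, 3.56% and 0.634% of all genes were called. The medians were -1.10, -1.48 and -0.30, and those of all genes 0.03, 0.129 and 0.097. Within PDX1-/-, 3 rose and 1 fell with the ISL1 vector against the BFP vector (median 0.848, against 0.133 over all genes), where 8.19% of all genes rose and 4.33% fell. Without both libraries of high mitochondrial share 0 rose and 2 fell, where 8.92% of all genes were called.

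ID3, an inhibitor of basic helix-loop-helix factors that BMP signals raise, had 394 and 339 CPM in WT with the BFP vector, 118, 78.9 and 109.8 CPM in ISL1-/-, 33.9, 86.2 and 84.6 CPM in PAX6-/- and 83.3, 62.2 and 56.9 CPM in PDX1-/-. Every WT library was above every knockout library. ID3 fell by 2.43 in PAX6-/- (SE 0.66, adjusted p 0.0377) and by 2.44 in PDX1-/- (SE 0.66, adjusted p 0.0251), both lost without any 1 of their 5 libraries (up to 0.192 and 0.139). SMAD7, an inhibitory SMAD, had 22.9 and 12.7 CPM in WT and 4.40 to 8.70 CPM in the BFP-vector knockouts, and fell by 1.81 in ISL1-/- (SE 0.38, adjusted p 0.00883), lost without WT replicate 1 or ISL1-/- replicate 3 (up to 0.188). SMAD6, its relative, fell by 2.02 in PDX1-/- (SE 0.41, adjusted p 0.00478), from 24.1 and 17.0 to 6.27, 3.31 and 5.59 CPM, lost without WT replicate 1 (0.0734). The summed level of 6 endothelial markers was 116 and 125 CPM in WT with BFP and 32.9 to 59.0 CPM in the BFP-vector knockouts. Most of it came from EGFL7 and KDR, the 2 of 6 markers that averaged above 1 CPM. Both were higher in each WT than in every knockout library with BFP, EGFL7 at 97.8 and 101 against 27.4 to 57.2 CPM. VWF was lower in WT with BFP, at most 0.044 CPM, than in PAX6-/- and PDX1-/-, at 0.339 to 0.727 CPM. CDH5 and TEK overlapped WT in these 2 knockouts, and PECAM1 was at most 0.484 CPM in every library. The part of the endothelial markers in the result was not tested.

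In PDX1-/- with the ISL1 vector, ID1 had 25.8 and 406 CPM, ID2 233 and 1690 CPM and ID3 81.4 and 1119 CPM in replicates 2 and 4. Replicate 2 lay near the BFP-vector libraries, which had 25.5 to 37.1, 154 to 205 and 56.9 to 83.3 CPM, and replicate 4 lay above WT. The calls for ID1, ID2 and ID3 in that comparison (2.82, 2.36 and 3.15) therefore rest on replicate 4, without which their fold changes were -0.24, 0.32 and 0.28. That library had 97.4 CPM of BMP2, 22739 CPM of hepatocyte markers and the highest islet endocrine and endothelial marker sums, 158381 and 261 CPM. It had 25612 CPM of INS and 106084 CPM of GCG, both above every WT library. The other PDX1-/- libraries had 87.5 to 186 CPM of INS and 11660 to 19603 CPM of GCG. The part of these differences in the ID values was not tested.

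**Figure D5:**
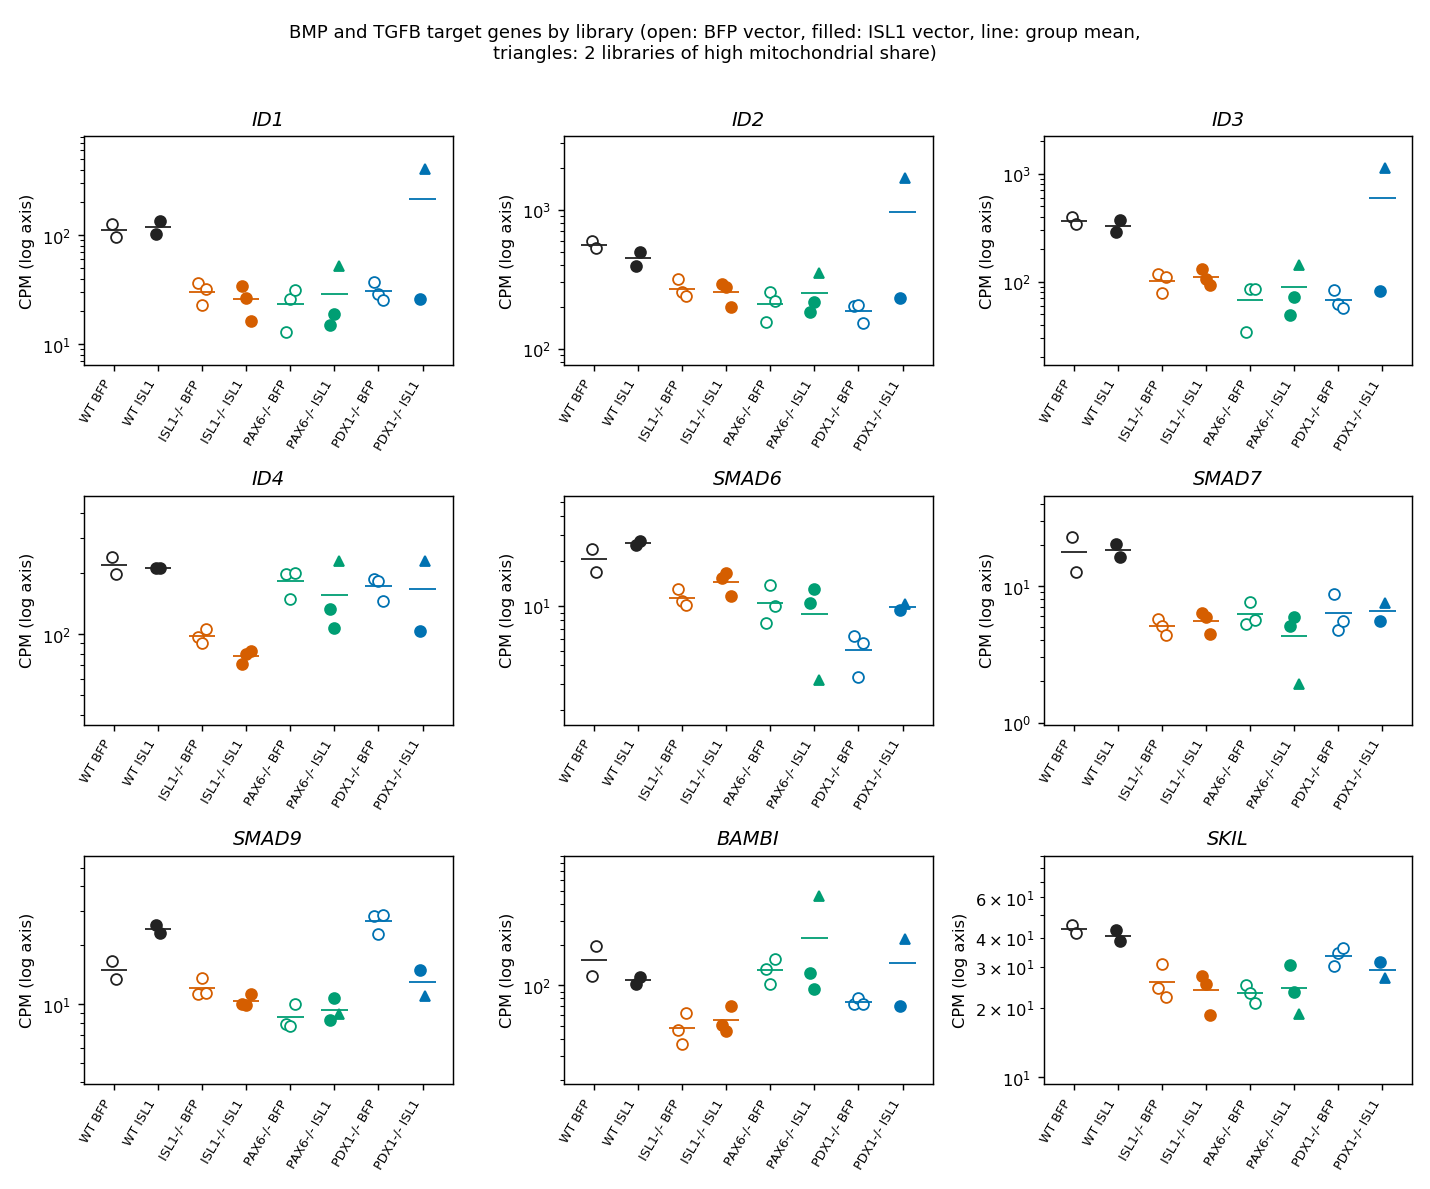
CPM of the named BMP and TGFB target genes in each library, on log axes, by group; open symbols are the BFP vector, filled symbols the ISL1 vector, lines group means and triangles the 2 libraries of high mitochondrial share. The WT libraries lie above the knockout libraries for ID1, ID2 and ID3 except for the triangle of PDX1-/- ISL1-vector replicate 4, while the group mean of SMAD9 is highest in PDX1-/- with the BFP vector.

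ACVR1C, the activin receptor-like kinase ALK7 known from endocrine cells, had 308 and 505 CPM in WT with the BFP vector, 34.2, 47.1 and 42.5 CPM in ISL1-/-, 87.1, 52.8 and 80.7 CPM in PAX6-/- and 117, 128 and 154 CPM in PDX1-/-. It fell by 3.30 (SE 0.28, adjusted p 2.09e-06), 2.47 (SE 0.27, adjusted p 6.9e-05) and 1.61 (SE 0.27, adjusted p 0.00125), and these 3 calls were kept in all 21 fits that left out 1 library. It was 1.69 higher in PDX1-/- than in ISL1-/- (SE 0.25, adjusted p 0.000649). The summed level of the 13 islet endocrine markers was 66414 and 85119 CPM in WT with BFP, 30099 to 39856 CPM in ISL1-/-, 19188 to 32061 CPM in PAX6-/- and 67162 to 76934 CPM in PDX1-/-. These markers did not move together. GCG, the largest part of the sum in WT, had 36246 and 51317 CPM there, 74.2 to 90.9 CPM in ISL1-/- and 15.7 to 77.9 CPM in PAX6-/-. INS, SST, SCG2 and SCG5 were also below WT in these knockouts, and INSM1 and FEV were above WT. The other markers overlapped WT in at least 1 of these knockouts. The part of the markers in the ACVR1C values was not tested. Of the 13 receptors of the BMP, activin and TGFB list, 2 fell and 0 rose in each BFP-vector knockout, where 3.92%, 3.26% and 5.65% of all genes fell in ISL1-/-, PAX6-/- and PDX1-/-.

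Of the 13 tested antagonists of that list, 1 fell in ISL1-/-, 1 fell and 1 rose in PAX6-/-, and 0 changed in PDX1-/- against WT with BFP, where 5.59%, 5.51% and 9.68% of all genes were called. GREM1, a BMP antagonist, fell by 2.99 in ISL1-/- (SE 0.83, adjusted p 0.0424) and fell by 3.67 in PAX6-/- (SE 0.87, adjusted p 0.0194), from 3.76 and 2.33 CPM to 0.202 to 0.485 and 0.0622 to 0.322 CPM. The ISL1-/- call was lost without any 1 of its 5 libraries (up to 0.258), and the PAX6-/- call was kept only without PAX6-/- replicate 2 (up to 0.152). BMPER, a BMP-binding protein, rose by 5.84 in PAX6-/- (SE 1.01, adjusted p 0.00302), from 0.0879 and 0.363 CPM to 14.0, 10.1 and 12.9 CPM, lost without WT replicate 1 (0.0808). It also stood out against ISL1-/- (5.00, SE 0.78, adjusted p 0.00121), where 0.319, 0.347 and 0.482 CPM were measured, and that call was kept in all 21 fits. FST, an activin-binding protein, rose by 2.41 in PAX6-/- against WT with the ISL1 vector (SE 0.56, adjusted p 0.0213), at 31.5, 26.6 and 96.5 against 7.79 and 11.5 CPM, lost without either WT library or PAX6-/- replicate 3 (up to 0.255).

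On the WNT side, LGR5, an RSPO receptor and WNT target, was at 0.0220 and 0.0907 CPM in WT with the BFP vector, 0.832, 0.988 and 1.48 CPM in ISL1-/-, 0.851, 1.59 and 1.15 CPM in PAX6-/- and 0.249, 0.197 and 0.262 CPM in PDX1-/-. LGR5 rose by 4.34 in ISL1-/- (SE 0.77, adjusted p 0.00244) and by 4.46 in PAX6-/- (SE 0.77, adjusted p 0.00286), both lost without WT replicate 1. These WT libraries held at most 3 counts of LGR5 each, so the size of both fold changes depends on the prior count. LGR6, its relative, fell by 4.33 in PDX1-/- (SE 0.89, adjusted p 0.00505), from 9.23 and 10.6 to 0.665, 0.375 and 0.437 CPM, and kept the call in all 21 fits. Of the 10 WNT target genes, 1 rose and 1 fell in ISL1-/-, 2 rose in PAX6-/- and 0 changed in PDX1-/- against WT with BFP, again beside 5.59%, 5.51% and 9.68% of all genes. The list's medians were 0.063, 0.284 and 0.123, against 0.025, 0.033 and 0.027 over all genes. The one that fell was LEF1, a WNT-responsive factor, by 2.84 in ISL1-/- (SE 0.80, adjusted p 0.0442), kept only without WT replicate 3 among its 5 libraries (up to 0.552). Among ISL1-vector libraries LGR5 rose again in ISL1-/- against WT, by 3.45 (SE 0.63, adjusted p 0.00469), from 0.231 and 0.188 to 2.14, 2.18 and 2.63 CPM, lost without either WT library (up to 0.0995). APCDD1, a membrane-bound WNT inhibitor, fell there by 1.66 (SE 0.32, adjusted p 0.00708), from 61.6 and 45.2 to 16.5, 14.9 and 19.3 CPM, lost without WT replicate 1 (0.117). NKD1, a feedback inhibitor, was the other that rose in PAX6-/-, by 1.78 (SE 0.35, adjusted p 0.00781), lost without either WT library (up to 0.120).

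Comparisons that share no library can be set beside each other. Members had the same sign of difference from WT with either vector in 43 of 61 cases in ISL1-/- (70.5%, against 75.9% of all genes), 48 in PAX6-/- (78.7%, against 64.9%) and 32 in PDX1-/- (52.5%, against 51.9%). The effect of the ISL1 vector had the same sign in WT and ISL1-/- for 37 members (60.7%, against 60.7% of all genes), in WT and PAX6-/- for 40 (65.6%, against 50.0%) and in WT and PDX1-/- for 34 (55.7%, against 47.1%). Between ISL1-/- and PDX1-/- it was the same for 40 (65.6%, against 59.6%), between ISL1-/- and PAX6-/- for 40 (65.6%, against 61.0%) and between PAX6-/- and PDX1-/- for 33 (54.1%, against 74.7%), and the last contrast holds both libraries of high mitochondrial share. FRZB had the same sign in all 4 vector effects. In ISL1-/-, BMP2, GDF15, BMP7 and WNT9A had the same sign with either vector, although WNT9A was not called there. In the other knockouts this did not hold for all 4. GDF15 fell in PDX1-/- with the BFP vector, but its highest group mean, 518 CPM, was in PDX1-/- with the ISL1 vector. BMP7 in PAX6-/- was above WT with the BFP vector and overlapped WT with the ISL1 vector.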

How the data were processed

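RNA from sorted BFP-positive cells was made into libraries with SMART-Seq v4 and KAPA EvoPrep kits and read on a NovaSeq X instrument, per the labels' protocols. The authors deposited 1 table of read counts per gene for the 21 libraries; STAR 2.7.11b, featureCounts 2.1.1 and GRCh38 are named in the submitters' processing notes, and the strand setting is not given in the sources used here. Of 62700 genes, ANK2 was left out because its entry is broken over 3 lines, which left 62699. No per-sample column was unused (0). Groups and replicate numbers came from the labels; in 3 libraries the numbers in title and description differ, and the description's number is used. P-values measure the spread between libraries of these lines.

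Counts were fitted with edgeR 4.0.16 (R 4.3.3, limma 3.58.1) in 1 quasi-likelihood model with a coefficient for each of the 8 groups, after TMM scaling and edgeR's filter on low counts (minimum 10 in a library, 15 in total). It tested 25884 genes, with a prior count of 0.125 for fold changes and a common biological coefficient of variation of 0.334. Fold changes are on the log2 scale with SE, p-values were adjusted by Benjamini-Hochberg over all genes tested, and a gene was called under 0.05. CPM used TMM-scaled library sizes, and CPM per kb used the deposited exon length in bases. In 17 comparisons, members, pathway lists and markers were chosen with earlier results of these data known. Named with values were, per comparison, up to 12 called members with at least 1 CPM in the higher group, the 3 most abundant members of each family per kb, and up to 6 pathway genes; other names are given as chosen after their values were seen or for the range they set. On simulated counts for PAX6-/- against WT with the BFP vector (24569 genes tested), the fit recovered 65.7% of genes changed by 2 and 94.8% of those changed by 3 on the log2 scale. The simulation gave every gene the same spread, below the common value of the data, and held no divergent library. These shares apply to that setting only.

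Alternatives were DESeq2 size factors within edgeR, no filter on low counts, DESeq2 1.42.0, the replicate number as a block, each library left out in turn, and both libraries of high mitochondrial share left out, which tested 27284 genes. Leaving out a library of a pair leaves a lone sample that is assumed to vary like the other groups. Deviations of same-numbered libraries correlated by more than 0.1 in every pair for the PAX6-/- vector comparison (0.155, 0.391 and 0.333). So did those for PDX1-/- against WT with the BFP vector (0.21 and 0.106), which share 2 numbers. Only in the PAX6-/- comparison, which shares 3, were the numbers, which come from the labels, taken to pair the libraries. Of the members, 16 have a span that overlaps a gene with more counts, and their levels are uncertain without the strand setting. Results for some genes of the pathway lists are not reported here.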

Additional observations from a re-analysis of the deposited data

Results flagged for a closer look

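SMAD9, which encodes a receptor-regulated SMAD of the BMP branch, differed in the effect of the ISL1 vector between WT and PDX1-/-. It had 16.6 and 13.4 CPM in WT with the BFP vector and 25.3 and 23.1 CPM with the ISL1 vector, while in PDX1-/- it had 28.1, 22.9 and 28.8 CPM with the BFP vector and 15.0 and 11.0 CPM with the ISL1 vector. Every ISL1-vector library was above the BFP-vector libraries in WT and below them in PDX1-/-. The effect was 0.69 in WT (SE 0.23, adjusted p 0.845), which was not called, and -1.03 in PDX1-/- (SE 0.22, adjusted p 0.00668). The difference between the effects was -1.72 on the log2 scale (SE 0.32, adjusted p 0.0152 by edgeR's quasi-likelihood test). It was -1.48 without both libraries of high mitochondrial share (adjusted p 0.00958), and -1.52 with the replicate number as a block (adjusted p 0.0596). The call was lost without PDX1-/- ISL1-vector replicate 4 (-1.50, adjusted p 0.0591), WT BFP-vector replicate 3 (0.0871) or either WT ISL1-vector library (0.134 and 0.0734).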

How the results depend on the processing

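Of 119 called values of members and pathway genes, 118 kept direction and call with DESeq2's scaling factors in edgeR, 112 with no filter on low counts, 112 without both libraries of high mitochondrial share and 106 with the replicate number as a block, as did 118 of 118 that DESeq2 could test. In the 2499 values with 1 library left out, 546 lost the call and 3 turned direction. The numbers of members called moved more, and the cause was not tested. DESeq2 called 9 in ISL1-/- against WT with the BFP vector, 10 in ISL1-/-, 5 in PAX6-/- and 1 in PDX1-/- against WT with the ISL1 vector, 2, 4 and 11 for the vector in ISL1-/-, PAX6-/- and PDX1-/-, 8 in PAX6-/- against ISL1-/-, 8 in PDX1-/- against ISL1-/-, 9 in PDX1-/- against PAX6-/-, and 5 for the vector's effect in PDX1-/- minus that in WT. With the replicate block, the counts were 9, 10 and 20 in ISL1-/-, PAX6-/- and PDX1-/- against WT with BFP, 14, 6 and 5 with the ISL1 vector, 2 and 4 for the vector in ISL1-/- and PAX6-/-, 8, 10 and 10 between the knockouts, 2 for the effect in PDX1-/- minus that in WT and 33 for any difference. That block leaves PDX1-/- ISL1-vector replicate 4 without a partner. Numbers were taken to pair libraries only in the PAX6-/- vector comparison, so elsewhere a change of count under the block is not read as a pairing. In PDX1-/- against WT with BFP the same-numbered libraries also correlated, at 0.21 and 0.106. In the ISL1-/- vector comparison the correlations were 0.183, 0.099 and 0.293. With no filter the counts were 6 in ISL1-/- against WT with BFP, 9, 3 and 1 with the ISL1 vector, 2 for the vector in ISL1-/-, 8 in PAX6-/- and 7 in PDX1-/- against ISL1-/-, 3 for the effect in PDX1-/- minus that in WT and 34 for any difference. Without both libraries of high mitochondrial share they were 22, 17 and 22 with BFP, 20, 12 and 7 with the ISL1 vector, 2, 8, 9 and 16 for the vector in WT, ISL1-/-, PAX6-/- and PDX1-/-, 12, 16 and 19 between the knockouts, 1 and 7 for the effects in ISL1-/- and PDX1-/- minus that in WT, and 41 for any difference. Leaving out each library in turn gave 1 to 9, 1 to 8 and 1 to 15 members with BFP, 0 to 11, 0 to 5 and 0 to 10 with the ISL1 vector, 0 to 0, 0 to 2, 0 to 4 and 3 to 22 for the vector in WT, ISL1-/-, PAX6-/- and PDX1-/-, 1 to 6, 1 to 9 and 3 to 9 between the knockouts, 0 to 0, 0 to 0 and 0 to 17 for the differences between vector effects, and 14 to 38 for any difference. In PDX1-/- the effect of the vector turned direction without ISL1-vector replicate 2 for TGFB3 (-1.54, against 3.54 without replicate 4) and BMPER (-1.21, against 3.55), and for ID1 without replicate 4 (-0.24, against 3.72 without replicate 2), without both libraries (-0.22) and with the block (-0.16). Counting limits the genes under 1 CPM, such as WNT7B and FZD8, and groups of 2 libraries limit every comparison with WT.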
